A study of Mus musculus with 12 samples.

Results

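Camk1g encodes calcium/calmodulin-dependent protein kinase I gamma, and its transcript was measured in the mouse prefrontal cortex beside the other genes of the calcium-calmodulin kinase family. The family was taken as 10 genes (Camk1, Camk1d, Camk1g, Camk2a, Camk2b, Camk2d, Camk2g, Camk4, Camkk1 and Camkk2), and every probe set annotated to 1 of them alone was used. This gave 31 probe sets for 9 of the 18193 genes that the array annotation names singly, while the level of Camkk1, which the annotation used names for no probe set alone, was not analysed here. RNA came from C57BL/6J mice of no further stated genotype or treatment, obtained at 10 weeks of age and entrained to 12 hours of light and 12 hours of darkness, and the sex of the mice is not given in the sources used here. Zeitgeber time (ZT) counts the hours since the lights came on, so that ZT3 and ZT9 fall in the light phase and ZT15 and ZT21 in the dark phase. There were 3 mice per time point and 1 mouse per Affymetrix Mouse430_v2 array, 12 arrays in all. The 4 times were sampled within a single cycle under light and dark, so a daily difference cannot be told apart from a response to the lighting.

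These kinases read out calcium in neurons. Calcium that enters through channels and receptors binds calmodulin, and the complex opens the catalytic site of the kinases. CaMKI and CaMKIV are further activated by upstream CaMK kinases, whereas CaMKII forms a large holoenzyme that phosphorylates itself and so stays active after calcium has dropped; in the forebrain it is best known for its part in synaptic plasticity. CaMKI gamma is held at membranes by a lipid anchor and is known for its part in dendrite growth of cortical neurons.

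Values are log2 of the background-corrected intensity, so 1 unit is a doubling, and are given in the order of the 3 mice. Of the 31 probe sets, 28 were tested, being among the brightest 54.5% of the 45037 probe sets of the array that are not controls. The 3 others belonged to Camk2a (1441734_at, with a mean of 4.62 over the 12 arrays) and Camk2d (1456844_at and 1444031_at). The dimmest probe set tested on the array had a mean of 4.87, and the Camk4 probe set 1452572_at lay just above it, between 4.74 and 5.06 on all arrays. Probe sets of 1 gene can bind different ends or forms of its transcript, so each is described on its own. Levels of different probe sets are not set against each other, because each binds with its own strength.

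Some arrays stood apart on measures of RNA quality before any kinase was considered. The actin control probe sets bind both ends of one transcript, and the excess of the 3′ over the 5′ end, which grows as RNA is degraded or incompletely copied, was between 0.66 and 0.95 log2. It was 0.66 to 0.70 at ZT3, 0.69 to 0.95 at ZT9, 0.67 to 0.84 at ZT15 and 0.79 to 0.88 at ZT21. ZT9 replicate 1 was the highest of the 12 arrays on this measure and also on the same measure for Gapdh, at 0.31 against 0.10 to 0.26 on the other arrays. The 18S ribosomal control ran between 5.62 and 12.53 across arrays. Neuronal markers were strong on every array, with all 6 listed genes tested and a summed intensity of 39198.8 to 53280.6. Of the markers of other cells or tissue, the summed choroid plexus genes varied most, at 785.8 to 2124.7 at ZT3, 1922.9 to 29561.7 at ZT9, 2376.4 to 18909.1 at ZT15 and 1627.3 to 5570.5 at ZT21, with Kl and Folr1 below the tested intensities. In tissue RNA such as this, fewer cells of a type and less RNA per cell cannot be told apart.

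Camk1g stood highest early in the dark phase. Its single probe set, 1424633_at, read 7.99, 7.74 and 7.84 at ZT3 and 7.82, 7.76 and 7.89 at ZT9. It read 8.92, 8.77 and 8.93 at ZT15 and 8.13, 8.20 and 8.06 at ZT21. The lowest ZT15 mouse thus lay above all 9 mice of the other times, the ZT21 mice lay above every ZT3 and ZT9 mouse, and the ZT3 and ZT9 mice overlapped. Mean levels were 7.86 ± 0.13 at ZT3, 7.83 ± 0.07 at ZT9, 8.87 ± 0.09 at ZT15 and 8.13 ± 0.07 at ZT21 (SD, n = 3 each), a span of 1.05 log2, or 2.07-fold. ZT15 exceeded ZT3 by 1.02 log2, and ZT21 exceeded ZT9 by 0.31 log2. The spread between mice within a time was 0.091 log2, narrower than the median of 0.17 over all probe sets tested. Camk1g was chosen by this very pattern of levels over the 4 times, and the family was chosen for Camk1g, so these values are a description and no test is attached to them.

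**Figure D1:**
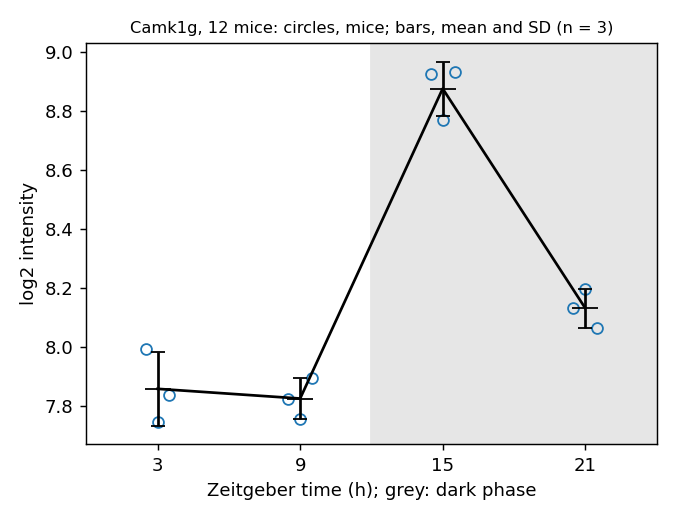
Camk1g level (log2 intensity, vertical axis) against Zeitgeber time in hours, with circles for the 12 mice, bars for the mean and SD of 3 mice, and grey for the dark phase. The 3 ZT15 mice, between 8.77 and 8.93, sit above all others, of which the highest is a ZT21 mouse at 8.20.

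On the whole array 290 of the probe sets tested, 1.18%, had all 3 ZT15 arrays above the other 9, and 197 probe sets, 0.8%, spanned as much as Camk1g or more over the 4 times. Over the 12 arrays the Camk1g level correlated at Pearson r = 0.01 with the actin 3′ excess and 0.04 with that of Gapdh. It correlated at 0.15 with 18S and 0.18 with mean intensity. The part of RNA quality in the Camk1g level was not tested. The arrays are shared by every such comparison. Leaving out any 1 mouse kept the span between 1.02 and 1.10 log2. With the summed marker genes of other cells Camk1g correlated at r = 0.31 for choroid plexus and 0.56 for blood, where 1 of the 2 measured markers was tested. The part of these cells in the Camk1g level was not tested.

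The promoter of Camk1g is shown with those of Camk1 and Camk1d, the other CaMKI genes among the 10, because these are of the same class as the one family member with a clear early-dark peak. Each is 300 bases from RefSeq (mouse build GRCm38.p6), mostly upstream of the annotated start and reaching just past it, on the minus strand, with every CG dinucleotide in capitals. Camk1g lies at chr1:193370233-193370532, Camk1 at chr6:113343873-113344172 and Camk1d, for which the more CG-rich of the annotated starts is printed, at chr2:5714713-5715012.
Camk1g: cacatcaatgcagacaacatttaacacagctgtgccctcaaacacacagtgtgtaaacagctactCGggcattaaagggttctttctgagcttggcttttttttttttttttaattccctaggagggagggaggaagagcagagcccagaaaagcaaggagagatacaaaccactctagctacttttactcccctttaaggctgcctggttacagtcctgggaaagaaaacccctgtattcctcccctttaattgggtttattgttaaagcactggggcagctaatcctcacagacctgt
Camk1: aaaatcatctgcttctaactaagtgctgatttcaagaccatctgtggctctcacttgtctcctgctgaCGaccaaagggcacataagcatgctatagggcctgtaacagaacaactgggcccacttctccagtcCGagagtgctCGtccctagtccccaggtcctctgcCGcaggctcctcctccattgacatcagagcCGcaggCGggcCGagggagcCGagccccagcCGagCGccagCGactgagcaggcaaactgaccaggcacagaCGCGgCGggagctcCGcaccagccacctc
Camk1d: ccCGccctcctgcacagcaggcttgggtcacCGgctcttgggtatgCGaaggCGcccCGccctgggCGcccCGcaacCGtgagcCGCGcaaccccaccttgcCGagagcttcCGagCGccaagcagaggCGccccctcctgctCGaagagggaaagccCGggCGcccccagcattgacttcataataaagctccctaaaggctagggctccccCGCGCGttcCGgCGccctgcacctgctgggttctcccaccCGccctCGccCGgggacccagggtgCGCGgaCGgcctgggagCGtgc
The Camk1g window held 1 CG, and 5.4% of the 32851 promoters of the same length held fewer. Camk1 held 15 and this start of Camk1d 29, against a median of 7 over all promoters. In 8 windows of 7 family genes, the Camk1g window was the poorest in CG. The next was the second Camk1d start with 5, and the others held up to 51, in Camk2b. GC content was 44.7% in Camk1g, 60.0% in Camk1 and 71.3% in the printed Camk1d window, against a median of 52.7%. Sought on both strands, the full cAMP response element TGACGTCA, the E-box CACGTG and the D-box TTATGTAA occurred in 0 of the 8 windows, and they occur in 1.79%, 7.15% and 0.938% of all promoters. The shorter TGACG, which is contained in the full element, was found for Camk1 and Camkk1 and occurs in 20.8% of promoters. CCAAT was found in 4 windows, Camk1g included, and occurs in 37.4% of promoters. The GC box GGGCGG was found in 6 windows, in neither Camk1g nor Camk1, and occurs in 35.7% of promoters. A match is a run of letters and not a measured site.

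Among the 8 other kinase genes, with 27 tested probe sets, none passed the test of a difference between the 4 times. The count was 0 of 27 at an adjusted p under 0.20 (limma, moderated F-test, Benjamini-Hochberg over all probe sets tested), where 473 probe sets, 1.93%, passed on the whole array. At an unadjusted p under 0.05 the count was 4 of 27, against 15.5% of all probe sets. The 4 were 1417605_s_at of Camk1 and 1442707_at, 1443876_at and 1452453_a_at of Camk2a. The spans of the means over the 4 times were 0.03 to 0.73 log2 with a median of 0.33, against a median of 0.27 over all tested probe sets, and 0 of 27 had all ZT15 mice above the other 9. Their highest mean fell at ZT3 in 4, at ZT9 in 9, at ZT15 in 9 and at ZT21 in 5, and the share with the highest mean at ZT15, 33.3%, compares with 24.1% of all probe sets. The 9 highest at ZT15 belonged to 4 of the 8 genes, and probe sets of the same gene are not independent. The lowest mean fell at ZT3 in 13 of 27, against 39% of all. The within-time spread of the relatives was 0.08 to 0.48 log2. When each array was given a weight estimated from its own scatter in the fit, 16 of the 27 passed, but so did 14718 probe sets in all, 60% of those tested. With ZT9 replicate 1 left out 2 of 27 passed, against 12.3% of all.

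The probe sets of Camk1 and Camk1d, the other CaMKI genes among the 10, spanned 0.12 to 0.61 log2 over the 4 times. Camk1 encodes the widely expressed alpha form. Its probe set 1417605_s_at, whose suffix marks probes that may also match other transcripts, read 9.08, 8.92 and 8.93 at ZT3 and 9.30, 9.02 and 8.96 at ZT9. It then read 9.21, 9.23 and 9.47 at ZT15 and 9.33, 9.24 and 9.25 at ZT21. All dark-phase mice were above all ZT3 mice, while the ZT9 mice overlapped with the dark-phase ones. The span was 0.33 ± 0.11 log2 (SE), with an adjusted p of 0.310, and 0.159 without ZT9 replicate 1 (0.0162 to 0.558 over all alternatives). This probe set also followed the actin 3′ excess over the arrays (r = 0.69), whose part was not tested. The second Camk1 probe set, 1417604_at, had means of 9.44, 9.47, 9.59 and 9.43 in order of time, with a span of 0.16 log2 and an adjusted p of 0.546, and the pair correlated at only r = 0.13.

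Camk1d, the delta form of CaMKI, had 3 probe sets. 1438643_at read 7.54, 7.01 and 8.02 at ZT3, 8.06, 7.84 and 7.97 at ZT9, 7.95, 7.91 and 8.55 at ZT15 and 7.98, 7.90 and 7.63 at ZT21. The ZT3 mice alone spread over more than the span of 0.61 log2 between the time means (adjusted p = 0.398), and without ZT3 replicate 2 the span was 0.35 log2. 1426389_at had its highest mean at ZT15, 8.67 ± 0.32, and its lowest at ZT21, 8.22 ± 0.16 (SD, n = 3 each), with an adjusted p of 0.356. 1452050_at spanned 0.12 log2 (adjusted p = 0.891), and 0.22 without ZT15 replicate 2 or 0.27 without ZT21 replicate 2. The 3 probe sets correlated with each other at r = −0.03 to 0.36, so they gave no common pattern over the day.

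CaMKII genes code for the subunits of the abundant synaptic holoenzyme, alpha and beta being the main forms in forebrain neurons. The 5 tested probe sets of Camk2a, on chromosome 18, fell into different patterns. 1443876_at read 7.41, 6.84 and 7.31 at ZT3 and 8.04, 7.45 and 7.73 at ZT9. It read 7.83, 7.58 and 8.33 at ZT15 and 7.81, 7.80 and 7.72 at ZT21. Every mouse of the 3 later times lay above every ZT3 mouse. Its span of 0.73 ± 0.21 log2 (SE) was the widest among the relatives, with an adjusted p of 0.274. It passed the threshold with the 15000 brightest probe sets alone (0.189) and without ZT9 replicate 1 (0.175), and over all alternatives the adjusted p was 0.0131 to 0.561.

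A pair of other Camk2a probe sets varied together. 1442707_at read 11.21, 11.72 and 11.71 at ZT3, 10.88, 11.24 and 11.26 at ZT9, 11.35, 11.70 and 11.42 at ZT15 and 11.17, 10.88 and 11.24 at ZT21. 1452453_a_at read 9.76, 10.49 and 10.55 at ZT3, 9.21, 9.72 and 9.95 at ZT9, 10.07, 10.45 and 9.91 at ZT15 and 9.87, 9.37 and 9.72 at ZT21. Both were high at ZT3 and ZT15 and low at ZT9 and ZT21, and they correlated at r = 0.97 over the 12 arrays, but the first replicate at ZT3 was no higher than mice of the low times. Their spans were 0.45 and 0.64 log2, with adjusted p of 0.302 and 0.318. They ran against 1443876_at of the same gene (r = −0.53 and −0.57) and against the actin 3′ excess (r = −0.64 and −0.72), while 1443876_at ran with it (r = 0.69). The part of RNA quality in these opposite patterns was not tested. The last Camk2a probe sets, 1437125_at and 1457311_at, spanned 0.31 and 0.16 log2 (adjusted p = 0.425 and 0.790).

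**Figure D2:**
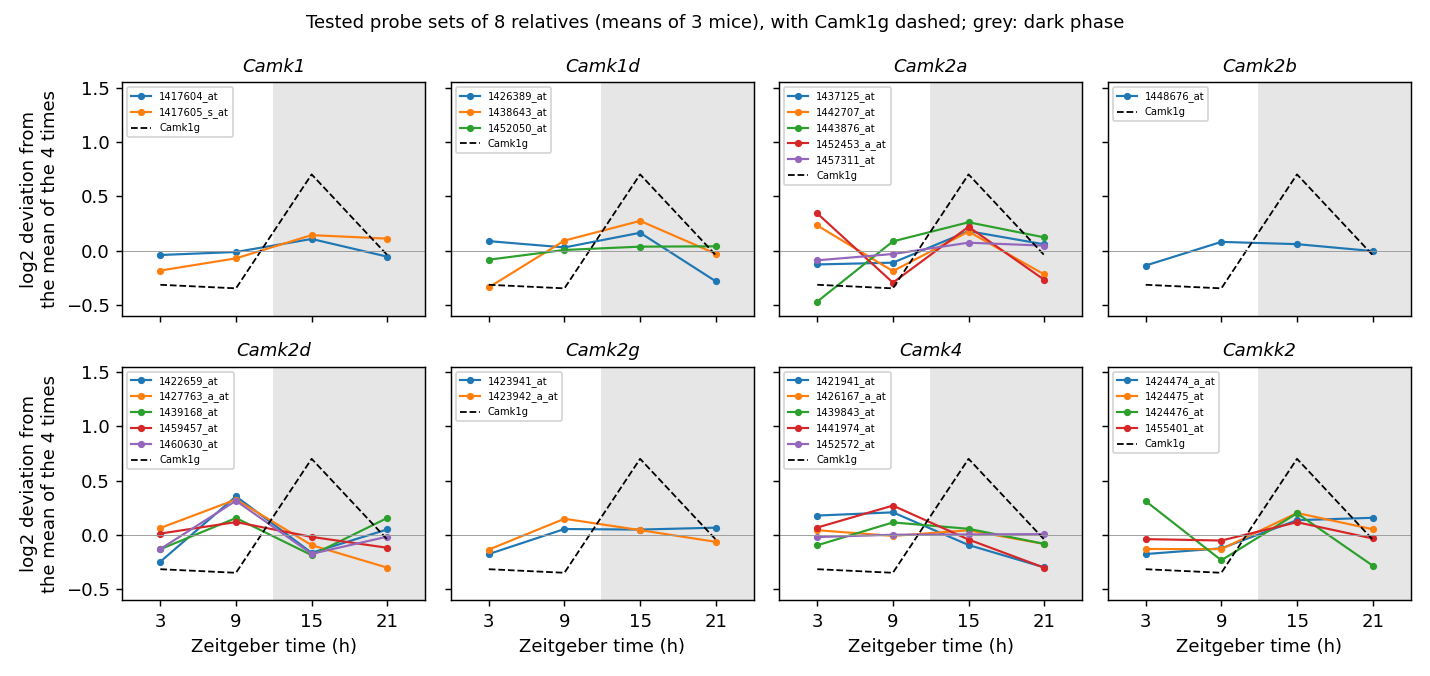
Mean log2 intensity of 3 mice at each Zeitgeber time, as the deviation from the mean of the 4 times, for the 27 tested probe sets of 8 kinase genes, with Camk1g dashed in each panel and the dark phase in grey. Camk1g has a single peak at ZT15, while the probe sets of Camk2a and Camkk2 differ among themselves and most of those of Camk2d are highest at ZT9.

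Camk2b, on chromosome 11, had 1 probe set and little variation. It read 11.40, 11.38 and 11.39 at ZT3, 11.56, 11.73 and 11.54 at ZT9, 11.62, 11.43 and 11.71 at ZT15 and 11.57, 11.39 and 11.61 at ZT21, with a span of 0.22 log2 and an adjusted p of 0.467. The ZT3 mice were the lowest on average, but the ZT21 mice overlapped with them. Camk2g, on chromosome 14, which codes for the gamma subunit, was likewise lowest at ZT3 in both probe sets, with spans of 0.24 and 0.28 log2 (1423941_at, adjusted p = 0.547, and 1423942_a_at, adjusted p = 0.531), and its probe sets correlated at r = 0.77. Without ZT9 replicate 2 the span of 1423942_a_at was 0.18 log2.

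Camk2d, on chromosome 3, codes for the delta subunit. Of its 5 tested probe sets, 1439168_at had nearly equal means at ZT9 (6.885) and ZT21 (6.886), and the 4 others were highest at ZT9. For 1422659_at the size of the span rested largely on 1 mouse. The ZT9 values were 10.36, 9.51 and 9.50, against 9.06, 9.34 and 9.16 at ZT3. The span of 0.60 log2 (adjusted p = 0.346) was 0.32 log2 without ZT9 replicate 1. For 1460630_at the ZT9 values were 7.39, 6.56 and 6.31, and the span of 0.49 log2 (adjusted p = 0.436) was 0.17 log2 without that mouse. In 1439168_at and 1459457_at too, ZT9 replicate 1 was the highest of its group, at 7.50 and 6.74. The span of 1439168_at, 0.34 log2, was 0.66 without ZT9 replicate 2 and 0.53 without ZT21 replicate 2. That of 1459457_at, 0.24 log2, was 0.15 without ZT9 replicate 1, 0.43 without ZT9 replicate 2 and 0.14 without ZT21 replicate 2. This probe set read the same 6.09115 on ZT3 replicate 1, ZT15 replicates 1 and 3 and ZT21 replicates 1 and 3. Likewise 1460630_at read 6.34527 on ZT3 replicate 3, ZT15 replicate 2 and ZT21 replicate 2. An identical value on several arrays gives no difference between those mice, and how far these levels are signal was not tested. ZT9 replicate 1 is the array with the greatest actin and Gapdh 3′ excess, whose part was not tested. 1427763_a_at was also highest at ZT9, but there the 3 mice were alike, at 9.19 each. It read 8.30, 8.49 and 8.90 at ZT21, so these groups did not overlap. That difference, ZT21 minus ZT9, was −0.63 log2 with a 95% interval of −1.08 to −0.17, the lowest of the family, and had an adjusted p of 0.277. Its ZT3 values were 8.69, 9.17 and 8.92 and its ZT15 values 9.12, 8.90 and 8.29, which overlapped with both.

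Camk4 codes for CaMKIV, a mainly nuclear kinase that phosphorylates CREB, and it lies on chromosome 18. Its probe sets 1421941_at and 1441974_at were lowest at ZT21 and correlated at r = 0.94. 1441974_at read 7.67, 7.42 and 8.07 at ZT21, against 7.84, 8.64 and 8.40 at ZT9, and the groups overlapped. Its span was 0.57 log2 (adjusted p = 0.480) and that of 1421941_at 0.51 log2 (adjusted p = 0.634), or 0.82 log2 without ZT9 replicate 1. Both ran against the 18S control over the arrays (r = −0.74 for 1441974_at and −0.76 for 1421941_at), whose part was not tested. 1439843_at, 1426167_a_at and 1452572_at spanned 0.21, 0.13 and 0.03 log2 (adjusted p = 0.511, 0.669 and 0.996). The span of 1439843_at was 0.33 log2 without ZT21 replicate 3 and that of 1426167_a_at 0.052 log2 without ZT21 replicate 2. The span of 1452572_at was 0.045 to 0.10 log2 without 1 of the ZT3 mice.

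Camkk2, on chromosome 5, codes for the upstream kinase that phosphorylates CaMKI and CaMKIV, and also AMPK. Its probe set 1424475_at read 9.99, 10.09 and 10.19 at ZT3, 9.91, 10.20 and 10.15 at ZT9, 10.35, 10.37 and 10.55 at ZT15 and 10.44, 9.996 and 10.38 at ZT21. The ZT15 mice were above all light-phase mice, but the ZT21 mice overlapped with both. The span was 0.33 log2 (adjusted p = 0.351), and of all 27 probe sets of the relatives this one ran closest to Camk1g (r = 0.65 over 12 arrays, and −0.30 after the time means were removed). 1424474_a_at and 1455401_at spanned 0.33 and 0.17 log2 (adjusted p = 0.383 and 0.663), and that of 1455401_at was 0.095 log2 without ZT15 replicate 3 and 0.26 without ZT21 replicate 3. 1424476_at took another course, with 7.93, 8.03 and 8.33 at ZT3, 6.91, 8.09 and 7.66 at ZT9, 8.23, 8.11 and 7.61 at ZT15 and 7.43, 7.31 and 7.77 at ZT21 (span 0.59 log2, adjusted p = 0.383). Of all family probe sets it ran most strongly against the actin 3′ excess (r = −0.80), whose part was not tested.

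**Figure D3:**
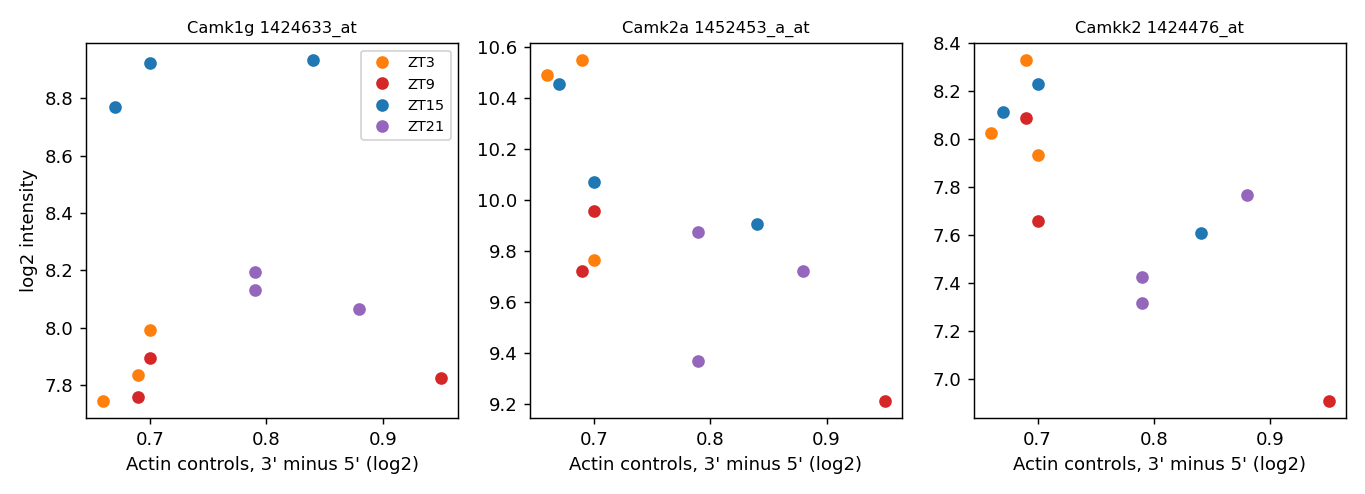
Log2 intensity (vertical axes) of Camk1g, Camk2a 1452453_a_at and Camkk2 1424476_at against the log2 difference between the 3′ and 5′ actin control probe sets, 1 point per array, coloured by time. For Camk2a and Camkk2 the probe set with the lowest correlation was picked. The other tested ones ran between r = −0.64 and 0.69 for Camk2a and between 0 and 0.69 for Camkk2. The plotted Camk2a and Camkk2 points fall toward ZT9 replicate 1 at 0.95 (r = −0.72 and −0.80). The ZT15 points of Camk1g, at 0.67 to 0.84, lie above all its others (r = 0.01). The part of RNA quality was not tested.

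In the comparison of the dark phase with the light phase, 0 of the 27 probe sets of the relatives passed an adjusted p of 0.05 (limma), where 23 of all probe sets, 0.0937%, passed, all of them higher in the dark. At an unadjusted p under 0.05 there were 6 of 27, against 15.3% of all. The differences, dark minus light, were −0.39 to 0.38 log2 with a median of −0.02, against 0.01 over all probe sets, and that of Camk1g was 0.66 log2. The nearest to the threshold was 1417605_s_at of Camk1, at 0.25 log2 (95% interval 0.08 to 0.43, adjusted p = 0.209). Both Camkk2 probe sets 1424474_a_at and 1424475_at were close to it, at 0.30 and 0.26 log2 (adjusted p = 0.244 and 0.243).

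Between ZT15 and ZT3, 0 of 27 passed, against 54 of all probe sets, 0.22%, and 5 of 27 had an unadjusted p under 0.05, against 12.5% of all. The differences, ZT15 minus ZT3, were −0.27 to 0.73 log2 with a median of 0.12, against 0.05 over all probe sets, and 17 of 27 were above 0, 63% against 60% of all. For 25 of 27 the upper end of the 95% interval was under the 1.02 log2 of Camk1g. The exceptions were 1438643_at of Camk1d, with an upper end of 1.12, and 1443876_at of Camk2a, at 0.73 log2 (0.28 to 1.18, adjusted p = 0.183). The difference between these genes and Camk1g was itself not tested.

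**Figure D4:**
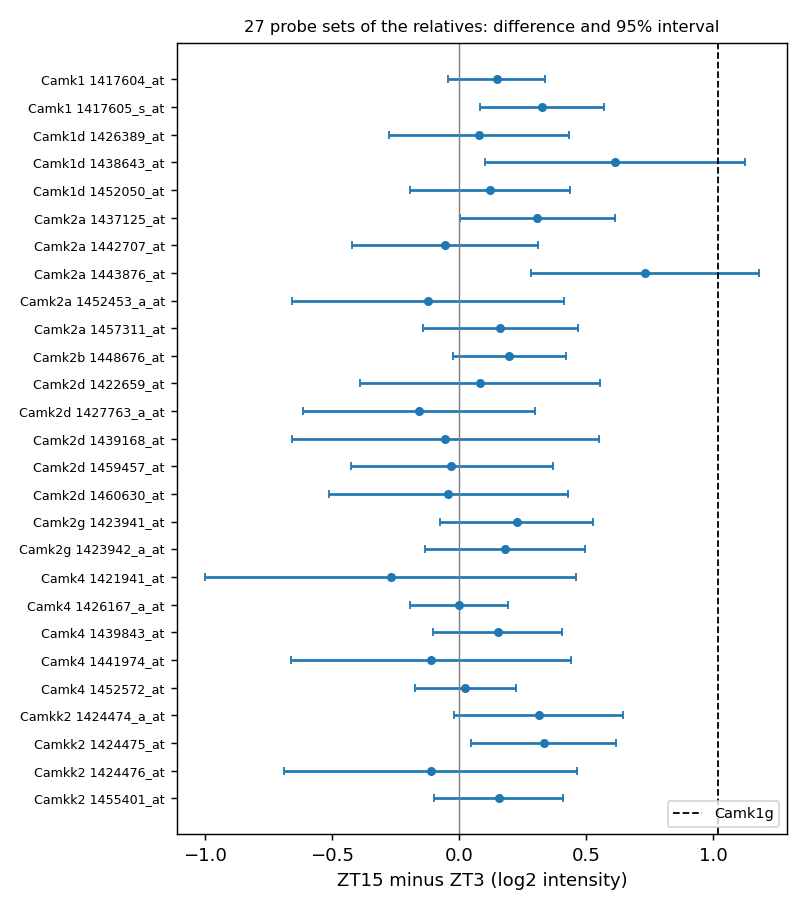
ZT15 minus ZT3 in log2 intensity (horizontal axis) for the 27 tested probe sets of the relatives, with points for the difference of the means of 3 mice and bars for the 95% interval of limma. The dashed line is the 1.02 log2 of Camk1g, which the bars of 1438643_at of Camk1d and 1443876_at of Camk2a cross. Camk1g was chosen by its levels, and the error of its value is not drawn.

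Later in the cycle, between ZT21 and ZT9, 0 of 27 passed, against 1 of all probe sets, 0.00407%, and 2 of 27 had an unadjusted p under 0.05, against 13.3% of all. These were 1427763_a_at of Camk2d and 1441974_at of Camk4, at −0.63 and −0.57 log2. The differences, ZT21 minus ZT9, ran up to 0.28 log2, with a median of −0.04 against −0.02 over all, and the 0.31 log2 of Camk1g was above them all. However, the upper end of the 95% interval was under that 0.31 log2 for only 14 of 27. The change from light to dark was then compared between its early and its late pair, ZT15 minus ZT3 less ZT21 minus ZT9. Again 0 of 27 passed, against 6 of all probe sets, 0.0244% (5 of them positive, 0.0204%), and 2 of 27 had an unadjusted p under 0.05, against 10.8% of all. The values were −0.15 to 0.73 log2 with a median of 0.19, against 0.10 over all probe sets, and Camk1g stood at 0.71. Here the upper end of the 95% interval was under the Camk1g value for 15 of 27. Of the relatives 23 of 27 were above 0, 85.2% against 64.5% of all probe sets. These 27 probe sets are of 8 genes on the same arrays, and some of the same gene varied together. They are thus not independent members, and the share was not tested. With array weights, 4 of 27 passed for dark against light (11.5% of all probe sets), 2 for ZT15 against ZT3 (4.16% of all), 5 for ZT21 against ZT9 (18.3% of all) and 3 for the early against the late pair (11.5% of all).

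The genes around the kinases were followed through 34 other measured genes with 1 probe set each, the brightest, of which 1 passed the test between times, against the 1.93% of all probe sets above. Nrgn, Gap43, Pcp4 and Pcp4l1, which bind calmodulin, spanned 0.12 to 0.29 log2, and 0 of 4 passed at either threshold. Stk33, a kinase of the same group, was below the tested intensities. Of 10 related kinases, kinase-like proteins and CaMKII inhibitors, 0 passed and 3 had an unadjusted p under 0.05, against 15.5% of all probe sets. Eef2k, the calmodulin-dependent kinase that slows translation elongation, had means of 7.65 ± 0.23 at ZT3, 8.20 ± 0.06 at ZT9, 8.05 ± 0.34 at ZT15 and 8.35 ± 0.16 at ZT21 (adjusted p = 0.227). Pnck, the beta form of CaMKI, and Camkv, a kinase-like protein of vesicles without catalytic activity, spanned 0.54 and 0.43 log2 and were highest at ZT9 (adjusted p = 0.259 and 0.297), both with ZT9 replicate 1 as the highest mouse, at 9.99 and 11.50. In this group 8 of 10 genes were highest at ZT9, against 29.1% of all probe sets. ZT9 replicate 1 was also the highest mouse for Dapk1, Camk2n2 and Mylk, at 11.07, 11.63 and 8.68. For Camk2n1, Dclk1 and Dclk2 another ZT9 mouse was the highest. The part of this array, which had the greatest actin 3′ excess, in the count was not tested.

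Phosphatases that reverse the kinases or respond to the same calcium signal gave 0 of 6. Ppm1f, which removes the activating phosphate from CaM kinases, spanned 0.47 log2 (adjusted p = 0.244). Of 14 known targets, 1 passed and 3 had an unadjusted p under 0.05, against the same 15.5%. The one that passed was Numb, an endocytic adaptor and inhibitor of Notch that is phosphorylated by CaM kinases. Numb read 9.59, 9.56 and 9.57 at ZT3, 9.64, 9.68 and 9.67 at ZT9, 10.05, 10.12 and 10.20 at ZT15 and 9.73, 9.77 and 9.94 at ZT21. All ZT15 mice were above the other 9, and the span was 0.55 ± 0.08 log2 (SE, adjusted p = 0.0716). The call was lost without ZT3 replicate 2 (0.255), ZT3 replicate 3 (0.216) or ZT15 replicate 2 (0.210), and the adjusted p ran over all alternatives between 0.00506 and 0.255. Hdac4, a histone deacetylase that leaves the nucleus when phosphorylated by CaM kinases, and Mef2d, a transcription factor it binds, spanned 0.54 and 0.37 log2 with the highest mean at ZT15 (adjusted p = 0.309 and 0.313).

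The same Numb probe set, 1416891_at, was 1 of those of the 8 genes outside the family that ran closest to Camk1g over the 12 arrays. By Pearson correlation these were Mbp (r = 0.97), Btaf1 (0.94), Numb (0.92), Cdyl2 (0.92), Osbpl3 (0.92), Manf (0.92), Pfkfb3 (0.91) and Trib2 (0.91), all with their highest mean at ZT15. They were chosen by likeness to Camk1g, so this shared peak is not a separate result. The likeness lay mostly in the time means, since after these were removed the correlations were −0.13 (Numb) to 0.49 (Mbp). The arrays share their RNA and normalization. Mbp, which codes for myelin basic protein, averaged 9.11 ± 0.08 at ZT3, 9.16 ± 0.06 at ZT9, 9.81 ± 0.02 at ZT15 and 9.40 ± 0.06 at ZT21 for 1425264_s_at (SD, n = 3 each), but the lowest of its 8 tested probe sets correlated with Camk1g at 0.12. The second tested probe set of Numb correlated with Camk1g at only 0.39, and the lowest of the 3 of Btaf1 at −0.24. For Trib2, Cdyl2 and Osbpl3, with 2 each, the lowest was 0.78, 0.85 and 0.89, while Manf and Pfkfb3 had 1 each. Manf, a secreted protein of the endoplasmic reticulum, had the widest span of the 8, 1.19 log2. Btaf1, a regulator of the TATA-binding protein, had the narrowest, 0.37 log2. Without ZT15 replicate 1, only 2 of the 8 genes remained among the closest, and without any other single array 5 or 6 did.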

How the data were processed

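Each array carries 1 intensity per probe set, deposited on a linear scale. The authors extracted them with GCRMA, which corrects for background and normalizes between arrays, and took detection calls from MAS 5.0, which were not used here. A genome build is not given in the sources used here. The log2 of each intensity was used, after a floor of 1 below which no value lay. The 64 control probe sets were left out, and the probe sets with the highest mean, in the number the authors kept by detection calls (54.5% of the 45037 others), were tested with limma 3.58.1 in R 4.3.3 (moderated F-test over the 4 times, adjusted p under 0.20, the study's false discovery rate, and contrasts, two-sided, adjusted p under 0.05; Benjamini-Hochberg over all tested probe sets). The authors' resampling method (SAM) was not run, and limma stands in for it. The samples are separate mice, and the sources used here name no batch. With 12 arrays, the number of mice limits the precision. Array replicate numbers were checked for pairing by the deviations from the time means. The 18 same-numbered pairs correlated at r = −0.498 to 0.487, 6 of them over 0.1, and 36 differently numbered pairs at −0.393 to 0.588. Same-numbered arrays were thus not visibly more alike, but ranges this wide cannot exclude a pairing. The mice were treated as unpaired. The fit was tested on simulated data.

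The family, the gene lists and the tests were chosen with earlier results of these data known. All family probe sets were named, as were the listed pathway genes (by their brightest probe set) and the 8 genes most correlated with Camk1g. Alternatives were quantile normalization, median centring, no filter on dim probe sets, no moderation, an intensity trend with robust prior, the 15000 brightest probe sets, array weights, a replicate block and each array left out. Markers of neurons, astrocytes, oligodendrocytes, microglia, endothelium, choroid plexus, blood, striatum, olfactory bulb and upper and deep cortical layers were summed per array. Over all lists the log2 sums correlated with Camk1g at r = −0.35 (olfactory bulb) to 0.56 (blood), and 1 of the marker genes tested passed the F-test, in endothelium. Python 3.11.15 with pandas 2.3.3, numpy 2.4.6 and matplotlib 3.10.9 made tables and figures.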

Additional observations from a re-analysis of the deposited data

How the results depend on the processing

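The count of relatives that passed the test between times was 0 of 27. With the 15000 brightest probe sets it was 1 of the 22 retained, against 8.87% of all. With array weights it was 16 of 27, against 60% of all. It was 0 to 2 with 1 array left out, the 2 being without ZT9 replicate 1, against 12.3% of all. It stayed at 0 under the other alternatives. Array weights also gave 4 for dark minus light (11.5% of all) and 2 for ZT15 minus ZT3 (4.16% of all). They gave 5 for ZT21 minus ZT9 (18.3% of all) and 3 for the early against the late pair (11.5% of all). Each of these counts was 0 under every other alternative run. The weights ran between 0.342 for ZT9 replicate 1 and 3.76 for ZT3 replicate 2, and 14718 probe sets passed with them in all. Of the pathway genes, 1 passed, against 1.93% of all probe sets, and 2 did with quantile normalization (8.73% of all). With the 15000 brightest probe sets 4 passed (8.87% of all), with array weights 27 (60% of all) and with 1 array left out 0 to 10. The count was 0 without ZT3 replicate 2 (0.163% of all), ZT3 replicate 3 (0.244%) or ZT15 replicate 2 (0.436%). It was 2 without ZT15 replicate 3 (5.62% of all) and 3 without ZT9 replicate 3 (6.08%). It was 5 without ZT9 replicate 1 (12.3% of all) and 10 without ZT21 replicate 3 (11.7%). The cause of these differences was not tested. With the replicate number as a block, 0 of 27 relatives passed in each test and 1 pathway gene did, so the block changed no call among these, while 91 of all probe sets passed, against 473 without it. That total was 2144 with quantile normalization, 252 with median centring, 194 without the filter, 1330 with the 15000 brightest, 79 without moderation and 40 to 3013 with 1 array left out. The ZT15 minus ZT3 difference of Camk1g was 0.92 log2 with quantile normalization and 1.02 without. Dim probe sets, such as 1452572_at of Camk4, lie near the lowest intensities tested, where the signal over background limits what can be measured. The Camk2d probe sets 1459457_at and 1460630_at each repeated the same value on several arrays.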
